A study of Rattus norvegicus with 4 samples.

Results

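The cytosolic ribosomal protein genes encode the protein parts of the ribosomes that translate messenger RNA in the cytosol. They were taken here as every gene whose symbol is Rpl or Rps followed by a number and at most 1 of the letters a, l or x with further digits, together with Rpsa, Rplp0, Rplp1 and Rplp2, and without the S6 kinases, whose symbols start with Rps6k. The rule found 86 genes measured by 200 probes, out of 16581 named genes on the array. Of these, 75 were canonical ribosomal proteins (30 of the small subunit and 45 of the large subunit) and 11 were paralogues with an l, or an l and digits, at the end of the symbol. No probe was named for 2 canonical symbols, Rps9 and Rpl37, although the gene table lists Rpl37 as an older name of Rpl37l1, which is a member.

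The cells were NR8383, a rat macrophage line that started from a lung lavage of a normal rat. All 4 cultures had received NM403 for 4 h, at a dose of 0.8 cm² of particle surface per cm² of culture surface. NM403 is a carbon nanotube with several walls (multi-walled). The labels call the cultures biological replicates 1 to 4. They had been seeded 48 h earlier in 25 cm² flasks with 15% serum, and all had gone through 20 passages. There was thus 1 group, and the unexposed cultures of the study were not analysed here, so no value below is a response to the nanotubes. Each replicate was 1 Agilent array read in 1 colour, and all 4 arrays lay on 1 slide. The values are levels on the log2 scale, scaled so that 0 is the array's 75th percentile over those probes that all 4 arrays detected. Because probes bind their targets with unequal strength, a gene's level is set only against its own level on another array, never against another gene's level. A level is an average over many cells, so fewer cells with the transcript and less transcript per cell cannot be told apart.

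Each ribosome holds 1 copy of nearly every ribosomal protein, so cells make these proteins in matched amounts, and proteins made in excess of the rest are degraded. The messenger RNAs share a terminal oligopyrimidine tract (TOP), a C at the first transcribed base followed by a run of C and T, through which mTOR and its effector Larp1 set how well they are translated. Much of the control of the family is therefore known to act on translation, which these arrays do not measure. In macrophages, ribosomal proteins also have roles off the ribosome, such as the release of Rpl13a to silence inflammatory transcripts.

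The tract is the sequence feature that the family is known for, and it stands at the annotated start of these members, which come from both subunits and differed in how they varied over the arrays. Each line gives 10 bases before and 20 from the annotated start, 5′ to 3′, from RefSeq (build GRCr8), with the tract in capitals.
Rps27, at chr2:177964587-177964616 on the minus strand: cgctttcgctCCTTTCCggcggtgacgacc
Rps15, at chr7:10068096-10068125 on the minus strand: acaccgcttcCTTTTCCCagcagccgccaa
Rps7, at chr6:50999426-50999455 on the minus strand: agagctgtgtCTCTTTCTaagccggcactc
Rpl10, at chrX:157205840-157205869 on the plus strand: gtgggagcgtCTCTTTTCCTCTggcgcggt
Rpl10a, at chr20:6390523-6390552 on the plus strand: cttctgccttCTTTTCCggttcccgcagcc
Rpl22, at chr5:168117951-168117980 on the plus strand: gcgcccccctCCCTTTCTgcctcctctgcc
Rpl28, at chr1:78083513-78083542 on the minus strand: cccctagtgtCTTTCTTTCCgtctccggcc
Rpl35a, at chr11:81235002-81235031 on the minus strand: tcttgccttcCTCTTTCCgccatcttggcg
Rplp0, at chr12:46718371-46718400 on the minus strand: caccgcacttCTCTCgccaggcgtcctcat

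The next 6 members do not have the tract at the annotated start and are shown because results below turn on them. Rps24 is the case in which a qualifying run begins within 5 bases of the annotated start but not on it.
Rps24, at chr16:96507-96536 on the plus strand: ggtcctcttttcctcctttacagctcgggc
Rps2, at chr10:14251838-14251867 on the plus strand: tctttttcttcgggaaaacacgtgagtctg
Rps3, at chr1:163195757-163195786 on the minus strand: ttcagcggcgcgcggcagcaagatggcggt
Rpl5, at chr14:1995206-1995235 on the minus strand: ctttcccacgtcgcttgcgtcctggaggtg
Rpl22l1, at chr2:113683186-113683215 on the plus strand: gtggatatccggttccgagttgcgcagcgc
Rpl39l1, at chr10:5966602-5966631 on the minus strand: caggccgtcccgctatcctggtgtgtggtc

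Over the family, 67 members matched 1 promoter each, and Rps27a, which matched 2, was left out. A C at the annotated first base followed by at least 4 bases of C or T was found in 23 of the 67 (34.3%). Over all 33469 promoters of the table the share was 2.63%, and over the promoters of genes detected on all arrays it was 2.68%. With at least 6 bases of C or T after the C, 15 members (22.4%) and 1.07% of all promoters qualified. Where the run could begin within 5 bases on either side of the start, 38 members (56.7%) and 17.0% of all promoters did. The longest runs had 12 bases and stood in Rpl10, Rpl31 and Rpl37a. Of the 8 paralogues with a promoter, 0 had the tract, and among 57 mitochondrial ribosomal protein promoters 2 had it.

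**Figure D1:**
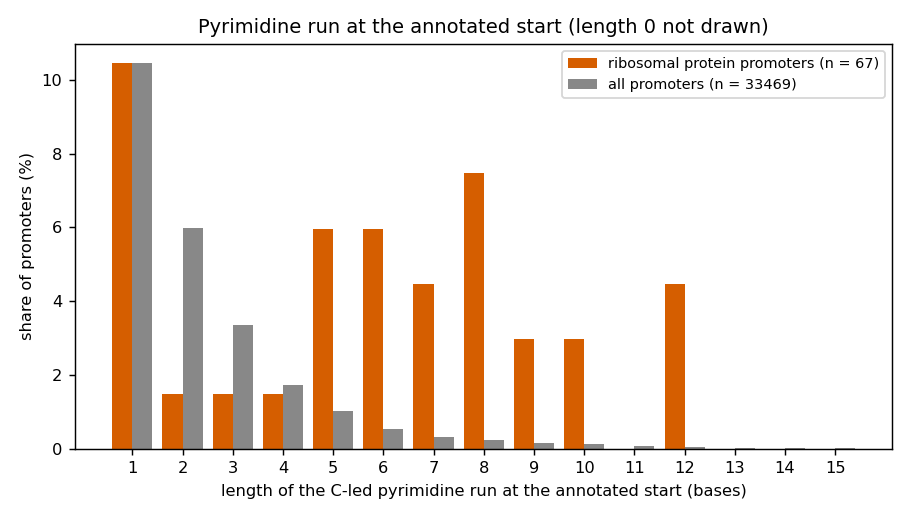
Share of promoters (%) by the length in bases of the pyrimidine run that begins with a C at the annotated start, for 67 ribosomal protein promoters and for all 33469 promoters. Runs of 5 to 12 bases make up 34.3% of the ribosomal protein promoters, and runs of 5 bases or more 2.63% of all promoters.

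All 75 canonical members were detected on all 4 arrays, where detected means that the scanner software called a probe of the gene well above background. With the paralogues, 82 of the 86 members (95.3%) were detected on all 4 arrays, against 47.9% of the 16581 named genes. Brightness did not reach the limit of the scanner: no member spot was saturated, and the brightest member signal was 41.9% to 65.6% of the saturation value. The median level of the 82 members was 5.24, 5.45, 5.35 and 5.41 on replicates 1 to 4 (mean 5.36 ± 0.089, SD, n = 4). The medians thus lay close together, with replicate 1 the lowest and replicate 2 the highest.

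**Figure D2:**
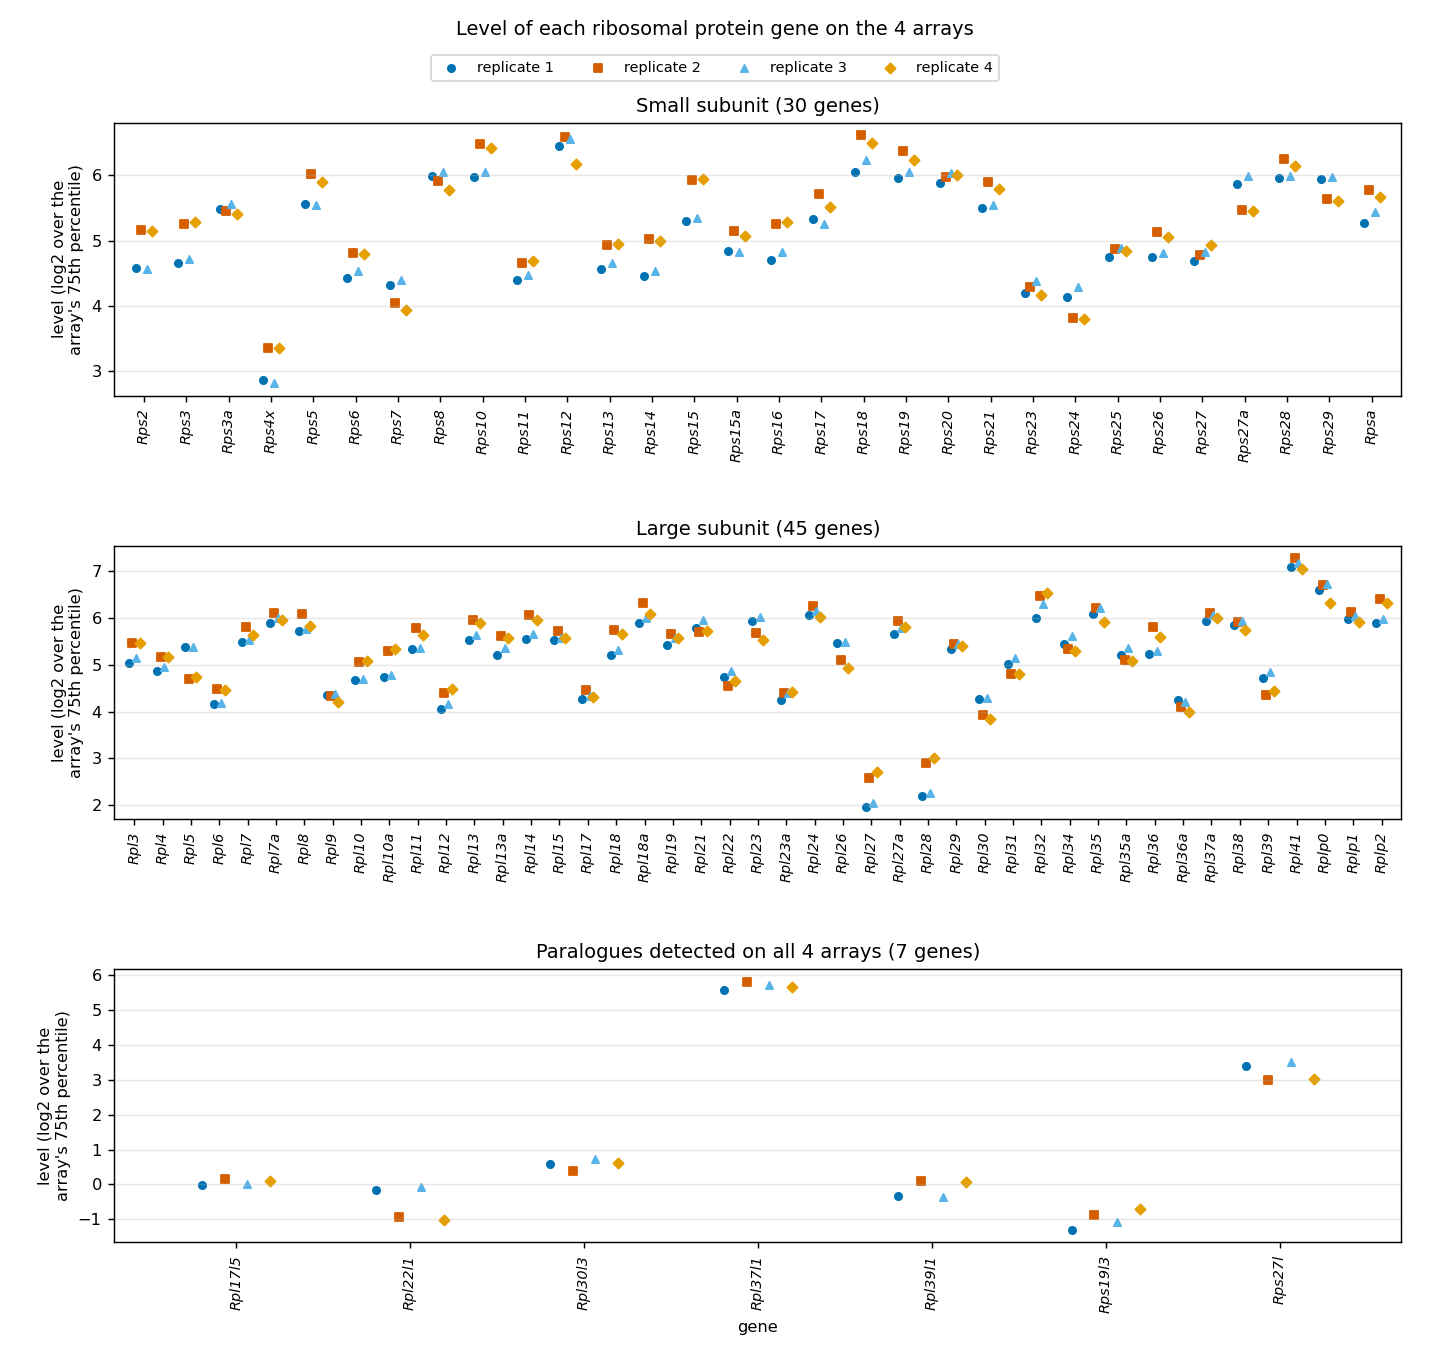
Level of every member detected on all 4 arrays (log2 over the array's 75th percentile; each point is 1 array), in panels for 30 small subunit genes, 45 large subunit genes and 7 paralogues. The 4 points of a gene lie within 2-fold of each other for every gene drawn, and genes differ in whether replicates 2 and 4 or replicates 1 and 3 are the higher ones; heights of different genes are not comparable.

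The small subunit decodes messenger RNA, and its members mostly stood higher on replicates 2 and 4. This was so for 19 of its 30 genes (63.3%), while 6 (20.0%) were higher on replicates 1 and 3. All 30 had a mean level of at least 3. The shares were 74.0% and 12.4% among all genes of that level whose brightest probe was detected on all 4 arrays. Over all 82 members, replicates 2 and 4 were both above replicates 1 and 3 for 44 genes (53.7%), against 47.3% of the 7935 eligible genes, those whose brightest probe was detected on all 4 arrays. Replicates 1 and 3 were both above replicates 2 and 4 for 20 members (24.4%), against 34.5% of the eligible genes. These splits moved with the scaling: 71 and 5 members with the 75th percentile taken over all probes, 59 and 12 with the median of the detected probes, and 27 and 42 under quantile normalization, the one in which the order turned. Replicates 2 and 4 also had fewer spots well above background (47.5% and 45.9%) than replicates 1 and 3 (50.8% and 49.6%), and Feature Extraction marked replicate 4 for evaluation, with 2 quality measures out of range; their part in the result was not tested.

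Rps3, which lines the channel where messenger RNA enters, had levels of 4.66, 5.25, 4.72 and 5.28 on replicates 1 to 4. Replicates 2 and 4 were thus both above replicates 1 and 3. Of the eligible genes with a mean level of at least 3, 74.0% had this order. The range of Rps3 was 1.54-fold (SD 0.33). Rps2, its neighbour at the same channel, read 4.58, 5.16, 4.56 and 5.15 (range 1.51-fold). Rps15, which sits in the head of the small subunit, read 5.30, 5.93, 5.35 and 5.95, the widest range of the canonical small subunit genes at 1.56-fold. The same higher pair was seen for Rps14, whose human counterpart lies in the region lost in the 5q- syndrome, at 4.45, 5.02, 4.53 and 5.00. Rps19, the gene first linked to Diamond-Blackfan anaemia, read 5.96, 6.37, 6.05 and 6.23, and Rps6, the substrate of the S6 kinases, read 4.42, 4.80, 4.53 and 4.80. Both were higher on replicates 2 and 4, by smaller margins than Rps3. Rps4x, the X-linked Rps4 gene, read 2.87, 3.35, 2.81 and 3.35. Rpsa, also known as the laminin receptor, read 5.27, 5.77, 5.44 and 5.67. In both of these the lower pair was again replicates 1 and 3.

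A smaller set of small subunit genes went the other way. Rps27a, which is made as a fusion with ubiquitin, read 5.87, 5.47, 5.99 and 5.45 (SD 0.28, range 1.46-fold). Rps24 read 4.14, 3.81, 4.29 and 3.80, Rps7 read 4.32, 4.05, 4.40 and 3.94, and Rps29 read 5.95, 5.64, 5.98 and 5.61. In each of these 4 genes both values of replicates 1 and 3 were above both values of replicates 2 and 4 in the scaling used here. That order depended on the scaling. With the percentile over all probes, 5 members of the whole family had it, and the SD of Rps27a was 0.071. Under quantile normalization 42 members had it, and the SD of Rps27a was 0.388. Other members barely varied in the scaling used here. Rps25, which some viral and cellular internal ribosome entry sites require, read 4.75, 4.87, 4.89 and 4.83 (SD 0.062). Its dimmest probe varied as little (SD 0.064), but another detected probe read 4.74, 4.86, 4.61 and 4.40 (SD 0.194). Rps3a read 5.48, 5.46, 5.56 and 5.40 (SD 0.065), and Rps20 lay between 5.87 and 6.03 on the 4 arrays (SD 0.067). With the percentile over all probes, the SDs of Rps25, Rps3a and Rps20 were 0.235, 0.165 and 0.239. Under quantile normalization they were 0.182, 0.183 and 0.107. Rps27 read 4.68, 4.79, 4.83 and 4.94, so its 4 values spanned 1.19-fold.

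The large subunit joins amino acids and holds the exit tunnel of the new protein. Of its 45 canonical genes, 22 (48.9%) were higher on replicates 2 and 4 and 12 (26.7%) on replicates 1 and 3. The first share is near the 47.3% of the eligible genes and below the 74.0% of those with a mean level of at least 3. The mean deviation of a gene from its own mean was -0.13, 0.12, -0.057 and 0.066 (log2) on replicates 1 to 4 in the small subunit. In the large subunit it was -0.092, 0.087, -0.00045 and 0.0052. Replicates 1 and 2 thus differed most in both subunits, and under quantile normalization the sign of both turned over the whole family. Among all eligible genes with a mean level of at least 3, members included, the mean deviation was -0.165, 0.157, -0.113 and 0.122. That is the same direction, and further from 0 than in either subunit. Over all eligible genes it was 0.024, -0.030, 0.025 and -0.018.

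Rpl28 had the widest range of the canonical members, 1.76-fold (SD 0.42), with 2.19, 2.90, 2.26 and 3.01. Rpl27 followed with 1.97, 2.58, 2.05 and 2.71 (range 1.67-fold). Rpl10a, part of the stalk that helps release spent transfer RNA, read 4.74, 5.29, 4.79 and 5.34. Rpl10, which joins last as the subunit matures, read 4.68, 5.05, 4.69 and 5.09. Rpl3 lies near the peptidyl transferase centre and read 5.05, 5.45, 5.15 and 5.47. Rpl4, which reaches into the exit tunnel, read 4.86, 5.16, 4.95 and 5.16. All of these were lower on replicates 1 and 3, and the 4 arrays of Rpl4 stayed within 1.23-fold. Rpl13a, named above for its role in macrophages, read 5.20, 5.61, 5.36 and 5.58 (range 1.33-fold).

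Rpl5 was the clearest member of the opposite set. It read 5.38, 4.70, 5.38 and 4.73, so replicates 1 and 3 differed by less than 0.01 and both were above replicates 2 and 4 (SD 0.38, range 1.60-fold). Rpl11 binds 5S ribosomal RNA together with Rpl5, and the complex they form can bind Mdm2, a ubiquitin ligase. Rpl11 read 5.34, 5.79, 5.37 and 5.64, with the higher pair opposite to that of Rpl5 and a range of 1.37-fold. Rpl23 and Rpl26, further members known to bind Mdm2, had the higher pair of Rpl5. Rpl23 read 5.93, 5.69, 6.01 and 5.53, and Rpl26 read 5.46, 5.10, 5.49 and 4.94. Mdm2 itself read -0.94, -1.18, -1.02 and -1.19. In the scaling used here, the members named in this paragraph therefore lay on both sides of the split between the arrays. The SDs of Rpl5, Rpl11, Rpl23 and Rpl26 were 0.385, 0.220, 0.223 and 0.274 in it. With the percentile over all probes they were 0.172, 0.428, 0.072 and 0.087. Under quantile normalization they were 0.547, 0.097, 0.320 and 0.440.

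Near the exit tunnel, Rpl39 read 4.71, 4.36, 4.84 and 4.44, again higher on replicates 1 and 3, and Rpl22 read 4.75, 4.54, 4.87 and 4.66. The SD of Rpl39 was 0.223 in the scaling used here. It was 0.048 with the percentile over all probes and 0.398 under quantile normalization. Rpl38, needed for the translation of certain Hox messenger RNAs, read 5.86, 5.91, 5.94 and 5.75 (range 1.14-fold). Rpl41, the shortest ribosomal protein, read 7.09, 7.27, 7.17 and 7.05. Rpl29 read 5.33, 5.45, 5.44 and 5.41 (range 1.09-fold). Its SD of 0.054 was the smallest of the members detected on all arrays in the scaling used here. With the percentile over all probes it was 0.242, and under quantile normalization 0.112. Rpl37a read 5.94, 6.10, 6.07 and 6.01. Rpl23a, which lies at the mouth of the tunnel, read 4.25, 4.40, 4.39 and 4.42. In the scaling used here, replicate 1 was apart from 3 values that nearly coincided. The SD of Rpl23a was 0.077 in it, and 0.267 with the percentile over all probes.

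The stalk that recruits translation factors is built from Rplp0, Rplp1 and Rplp2. Rplp0 read 6.59, 6.72, 6.72 and 6.33, and Rplp1 read 5.98, 6.12, 6.05 and 5.91, so replicate 4 was the lowest for both. Rplp2 read 5.90, 6.41, 5.98 and 6.32 and was instead higher on replicates 2 and 4. The 3 stalk genes thus did not share 1 order over the arrays, although their ranges were all small, 1.32-fold, 1.16-fold and 1.42-fold. Rplp0 and Rplp1 were each read from 1 probe printed 1 time, so their order could not be checked in another probe. Among 55 members with several detected probes, 14 had probes that differed in their highest pair.

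Members varied less over the arrays than the eligible genes as a whole. Their median SD was 0.189, against 0.234 for the 7935 eligible genes, and the 10th and 90th percentiles of the SD were 0.080 and 0.302 for the members, against 0.081 and 0.577. A range over 1.5-fold was found for 11 of the 82 members (13.4%), against 37.9% of the eligible genes. A range over 2-fold was found for 0 members, against 13.6%. The 11 genes were Rpl22l1, Rpl28, Rpl27, Rpl5, Rps15, Rps3, Rpl10a, Rps2, Rps19l3, Rps16 and Rpl36. Of these, 9 were higher on replicates 2 and 4, and 2, Rpl5 and Rpl22l1, on replicates 1 and 3. No such split was computed for the eligible genes over 1.5-fold, so whether the members differ from them was not tested. The pair of an array set also moved with the scaling, as given above. Nearest to the threshold were Rpl36 at 1.505-fold and Rps16 at 1.506-fold inside it, and Rps18 at 1.48-fold outside it. The count over 1.5-fold was 44 with the percentile taken over all probes, against 62.7% of the eligible genes. It was 33 with the median of the detected probes, against 51.9%. Without replicate 1 it was 6, against 33.6%, and a range over fewer arrays tends to be narrower. Among genes with a mean level of at least 3, the median SD was 0.186 for 75 members and 0.222 for all 346 such genes, members included. Of these brighter genes, replicates 2 and 4 were the higher pair for 52.0% of the members and 74.0% of all, and replicates 1 and 3 for 25.3% and 12.4%.

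**Figure D3:**
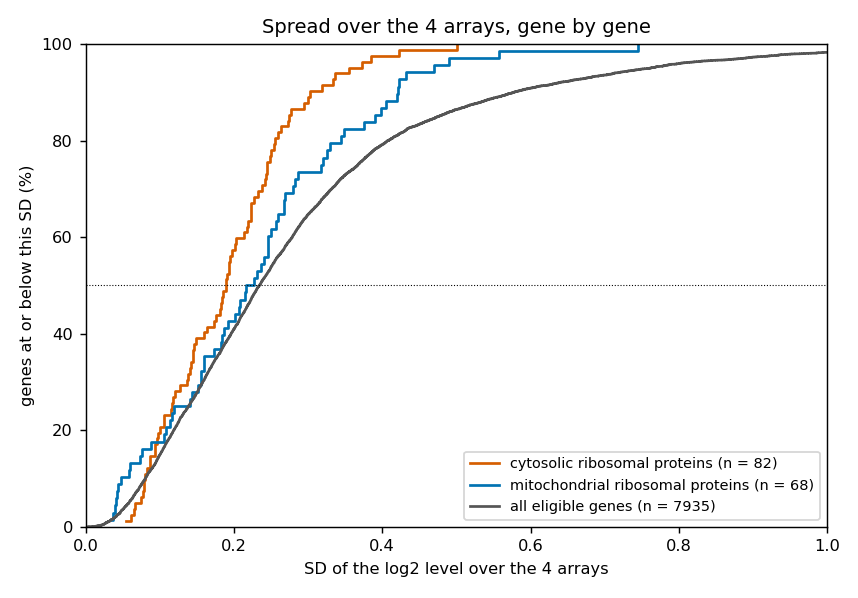
Share of genes (%) whose SD of the log2 level over the 4 arrays is at or below the value on the x axis, for 82 cytosolic ribosomal proteins, 68 mitochondrial ribosomal proteins and 7935 eligible genes; the x axis ends at an SD of 1. The curves cross 50% at SDs of 0.189, 0.222 and 0.234, and the cytosolic curve ends at 0.50.

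The error of the spots themselves was small beside the differences between arrays for most probes where it was measured. There were 67 member probes, from 46 genes, that were detected on all arrays and printed 10 times on each array. The SD among the spots of such a probe on 1 array had a median of 0.040 (log2), whereas the SD of its 4 array means had a median of 0.22. For 61 of the 67 probes the SD over arrays was above the largest SD among spots. Spot SDs cover only printing and scanning within an array, not the culture, the RNA extraction or the labelling. The 131 member probes printed 1 time have no spot SD, so the spot error of genes read from them was not measured.

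Because each percentile or median scaling adds 1 constant per array, the differences among members within an array do not depend on which of them is chosen. Each gene's deviation from its own mean was therefore also set against the mean deviation of the 75 canonical members on the same array. This centring makes the deviations of an array sum to 0, so that genes on both sides are partly given by construction, and what it shows is which genes lie where. On this scale 37 canonical members were highest on replicates 2 and 4, 31 on replicates 1 and 3, and 7 on other pairs. Small subunit genes made up 19 of the 37 and 10 of the 31, and large subunit genes 18 and 21. The largest relative ranges were those of Rpl5 (1.85-fold), Rpl28 (1.62-fold), Rpl26 (1.59-fold) and Rps27a (1.57-fold). In all, 7 canonical members exceeded 1.5-fold, 5 of them high on replicates 1 and 3. No matching share over all eligible genes was computed on this scale, so whether these counts differ from genes in general was not tested.

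Relative to the family, Rpl5 stood at 0.44, -0.45, 0.36 and -0.35 on replicates 1 to 4, and Rps3 at -0.21, 0.17, -0.24 and 0.28. Quantile normalization, which does change differences within an array, gave 0.46, -0.44, 0.37 and -0.39 for Rpl5 and -0.18, 0.14, -0.16 and 0.21 for Rps3. Under it, 35 of the 37 genes and 23 of the 31 genes kept their pair of highest arrays, and with normexp background correction 35 and 28 did. Most members thus kept their side under quantile normalization, while the direction of the family as a whole turned.

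**Figure D4:**
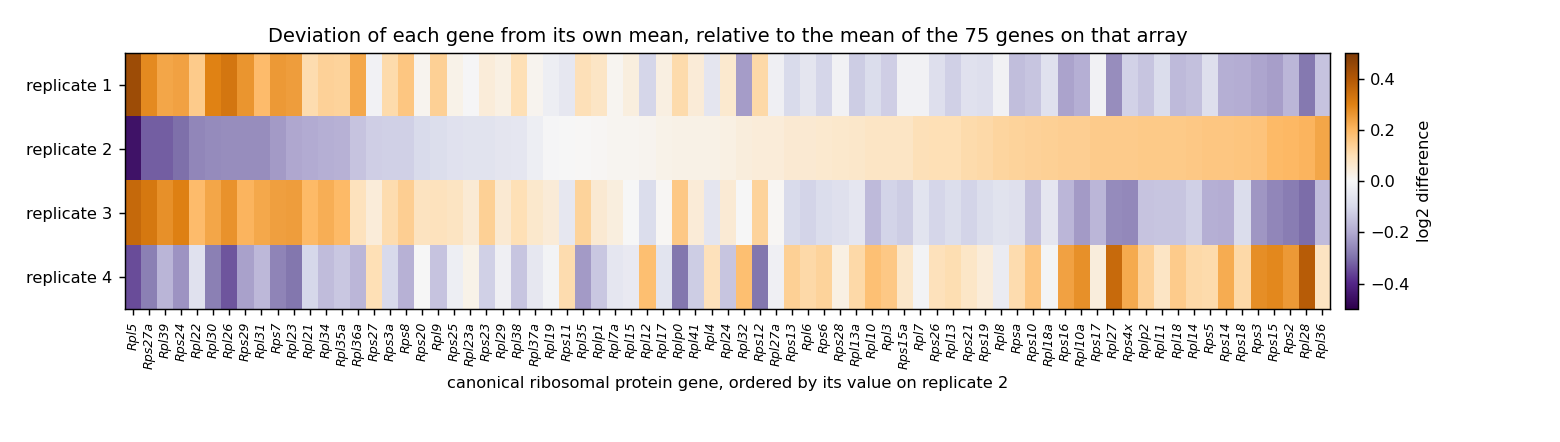
Deviation of each of the 75 canonical members from its own mean over the 4 arrays, after subtraction of the mean deviation of the 75 genes on that array (colour, log2 difference), with genes ordered by their value on replicate 2. Rpl5, Rps27a, Rpl39 and Rps24 stand at one end, high on replicates 1 and 3, and Rps15, Rps2 and Rpl28 near the other, high on replicates 2 and 4; quantile normalization left 59 of the 75 genes with the same pair of highest arrays.

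The tract occurred in both sets. For canonical members with 1 promoter, it stood at the annotated start in 8 of 30 genes highest on replicates 2 and 4 on the relative scale. The same was so in 12 of 25 genes highest on replicates 1 and 3. Rpl28 and Rps15, at one end, and Rpl22, Rpl35a and Rps7, toward the other, have tracts of 8 to 10 bases there (sequences above). Rpl5, Rps2 and Rps3 have none at the annotated start. Absence at the annotated start does not show that a transcript lacks the tract. The median SD was 0.174 for the 23 members with the tract at the annotated start and 0.197 for the 41 eligible members without it there. The GC content of the first 50 transcribed bases had a median of 60.0% in the first set, 58.0% in the second set and 64.0% over the eligible genes. The quartiles of both sets overlapped, at 56.5% to 66.0% and 58.0% to 62.0%.

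Paralogues were less completely detected than the canonical genes, with 7 of the 11 detected on all 4 arrays. Rpl22l1, which can replace Rpl22 in the ribosome and is known to be held down by it, had the widest range of the members detected on all arrays, 1.93-fold, with -0.15, -0.93, -0.073 and -1.02 (SD 0.50). Rpl22 had the same higher pair, with a range of 1.25-fold. Rps27l, a paralogue of Rps27, read 3.41, 3.00, 3.52 and 3.03 (range 1.44-fold), while Rps27 did not follow that order. Rpl39l1 read -0.33, 0.089, -0.36 and 0.059, with the higher pair opposite to that of Rpl39. Rps19l3 read -1.30, -0.88, -1.08 and -0.71, Rpl30l3 read 0.60, 0.37, 0.72 and 0.62, and Rpl17l5 read -0.015, 0.16, 0.023 and 0.096. Rpl37l1 read 5.59, 5.82, 5.71 and 5.67 (range 1.17-fold).

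Detection was partial for the other paralogues. Rpl27l2 was detected on 2 arrays, Rps12l4 and Rpl3l on 1 array each and Rpl39l5 on 0 arrays. Rpl3l, the striated muscle form of Rpl3, read -6.77, -5.70, -6.30 and -5.78, and on the arrays where it was not well above background these values give only an upper bound. Rpl7l1, Rpl10l, Rpl26l1 and Rpl39l had no named probe. Ribosomal protein transcripts have many near-identical copies in the genome: the gene table holds 908 symbols of ribosomal protein pseudogenes outside the rule, and a further 139 paralogue symbols that fit the rule have no named probe. A probe may therefore also bind copies, and the values of a gene and its copies are uncertain to that extent.

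Several probes measured 1 gene in many cases, so the probes of a gene could be compared. Probes of 1 gene share the RNA, the array and its scaling constant. Their agreement therefore cannot check differences that come from the samples or the scaling. The share of agreeing genes outside the family was not computed. There were 55 members with 2 or more probes detected on all arrays. In 41 of them every probe had the same pair of highest arrays: 26 genes with replicates 2 and 4, 13 with replicates 1 and 3 and 2 with replicates 2 and 3. Rpl5 was among them. Its dimmer probe, printed 10 times, read 3.26, 2.51, 3.23 and 2.58, a range of 1.69-fold against 1.60-fold for the brighter probe. The 4 probes of Rps27a all read higher on replicates 1 and 3, with ranges of 1.45-fold to 1.49-fold. The dimmer Rps3 probe read 4.25, 4.93, 4.28 and 5.04 (1.73-fold), and the 2 probes of Rps2 differed by at most 0.025 in their deviations.

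The probes disagreed most for Rpl13, Rpl32, Rpl7a, Rpl35, Rpl14 and Rpl8, by 0.305 to 0.381 (log2) on the array where they differed most. In Rpl7a, the brightest probe read 5.89, 6.10, 6.01 and 5.97, a range of 1.16-fold, and the dimmest read 3.13, 3.59, 3.30 and 3.77, a range of 1.56-fold. In Rpl14 the ranges were 1.43-fold and 1.88-fold. For 30 of the 55 genes the dimmest probe had the wider range, and the median range was 0.39 for the brightest and 0.41 for the dimmest probes. Probes of 1 gene also differed in brightness, by a median of 1.60 (log2) and by 8.74 in Rpl15, whose dimmer probe read between -3.22 and -3.09. The second probe of Rpl28 was well above background on 0 arrays. The brightest probe stands for a gene here, and in Rpl7a and Rpl14 it was the probe with the narrowest range.

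**Figure D5:**
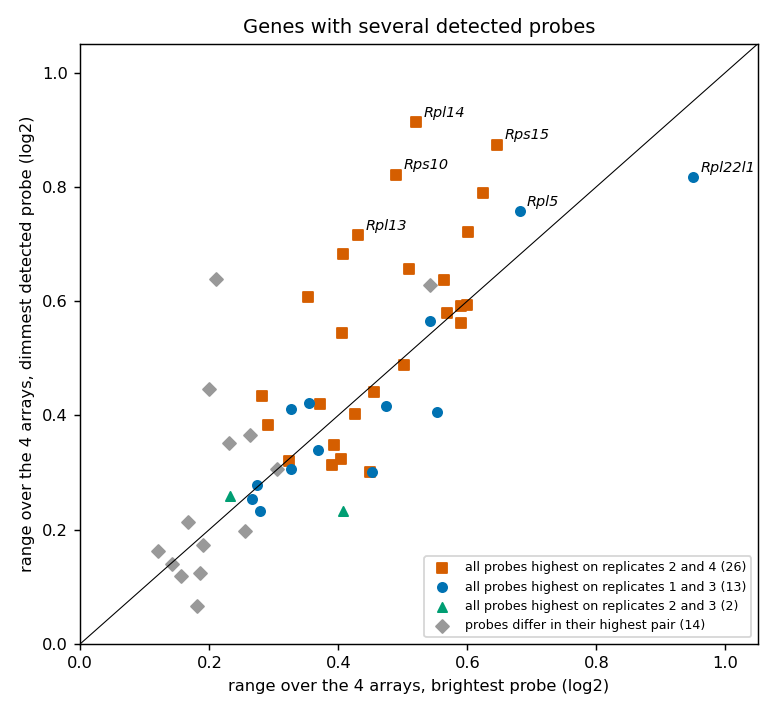
Range over the 4 arrays (log2) of the dimmest detected probe against that of the brightest probe, for 55 members with several detected probes; the line marks equal ranges and the markers show which pair of arrays was highest. Points lie on both sides of the line, 30 of the 55 above it, and 14 genes have probes that differ in their highest pair.

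Fau and Rack1, ribosomal proteins whose symbols the rule does not take, followed the larger set. Fau, which carries Rps30 behind a ubiquitin-like protein, read 4.44, 5.04, 4.58 and 5.15. Rack1, the signalling scaffold of the small subunit, read 2.73, 3.28, 2.76 and 3.35. Both were higher on replicates 2 and 4, with ranges of 1.63-fold and 1.53-fold.

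Other messenger RNAs known to carry the tract, those of translation factors and a few other abundant proteins, were detected on all arrays in 15 of 15 cases. Of the 10 with a promoter in the table, 0 had the tract at the annotated start, and 4 had it with the shifted start. Their median SD was 0.210, and 4 of the 15 (26.7%) had a range over 1.5-fold, against 37.9% of the eligible genes. Eef1a1, which brings transfer RNA to the ribosome, read 5.41, 5.76, 5.43 and 5.76, and Eef2, which moves the ribosome along, read 3.70, 4.12, 3.64 and 4.03. Eif3f, a subunit of an initiation factor, had the widest range of this list, 1.89-fold, with 2.07, 2.83, 2.07 and 2.99. In this list 8 genes (53.3%) were higher on replicates 2 and 4 and 5 (33.3%) on replicates 1 and 3. These shares are near the 47.3% and 34.5% of the eligible genes.

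Regulators of the tract had 10 of 11 genes measured, all detected on all arrays, while Larp1 had no named probe. Mtor read -4.62, -4.49, -4.69 and -4.12. Rps6kb1, the S6 kinase that acts below mTOR, read -1.03, -2.46, -1.07 and -2.58, a range of 2.92-fold (SD 0.85), wider than that of any member detected on all arrays. Rps6kb2, its relative, read 0.19, 0.28, 0.20 and 0.33. The 2 kinases had opposite higher pairs, and their ranges were 2.92-fold and 1.11-fold.

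Ribosome assembly factors had 25 of 28 genes measured, all detected on all arrays, with a median SD of 0.230. Of these, 10 (40.0%) had a range over 1.5-fold and 3 over 2-fold, against 37.9% and 13.6% of the eligible genes. Ncl (nucleolin, which organises the nucleolus) read 3.47, 2.27, 3.53 and 2.21, Nop58, a core protein of small nucleolar particles, read -0.48, -1.75, -0.55 and -1.71, and Gnl3, a nucleolar GTP-binding protein, read 0.051, -0.91, 0.029 and -0.97. These 3 were higher on replicates 1 and 3, the higher pair of Rpl5, but 14 of the 25 factors were higher on replicates 2 and 4. Chaperones of single ribosomal proteins were measured for 6 of 7 genes, with 0 over 1.5-fold. The largest SD of this list, 0.26, was that of Pdcd2, which escorts Rps2, with -2.24, -1.96, -2.30 and -1.74.

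Mitochondrial ribosomal proteins, which build the separate ribosome of the mitochondrion, served as the most similar family. Every one of the 68 genes with a named probe was detected on 4 of 4 arrays. Their median SD was 0.222 and 18 (26.5%) had a range over 1.5-fold, both between the values of the cytosolic family and of all eligible genes. Replicates 2 and 4 were the higher pair for 48 of them (70.6%), and replicates 1 and 3 for 8 (11.8%). The shares of the eligible genes were 47.3% and 34.5%.

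The label of the cells was set against marker genes. Of 12 macrophage markers measured, 10 were detected on all arrays, among them Cd68 (3.50, 4.00, 3.60 and 3.94) and Lyz2, while Marco and Adgre1 were detected on 0 arrays. Of 8 epithelial markers, 7 were detected on 0 arrays and Sftpc on 1. Of 5 fibroblast markers, Dcn was detected on all arrays, Col1a2 on 2 and 3 on none. Among lymphocyte markers, Cd4 was detected on all arrays, and Cd3e and Cd8a on none. Of 3 neutrophil markers, S100a8 was detected on 1 array and the other two on none. The summed level of the macrophage markers was 6.95, 7.31, 6.99 and 7.32 on replicates 1 to 4, higher on replicates 2 and 4. The brightest probes, those of Lyz2 and Tyrobp, weigh most in this sum. Of all eligible genes with a mean level of at least 3, 74.0% had that order. The markers did not all share it. Of the 10 detected on all arrays, 7 were higher on replicates 2 and 4, and 3 (Ptprc, Csf1r and Itgam) on replicates 1 and 3. The shares of the eligible genes were 47.3% and 34.5%. Ptprc read 2.16, 0.77, 2.11 and 0.81, a range of 2.62-fold. The part of the markers in the result was not tested.

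Across the 82 members, levels correlated between replicates 1 and 3 with Pearson's r of 0.999 and between replicates 2 and 4 with 0.998. The other 4 pairs of arrays gave 0.976 to 0.980. The same pairs stood out over all eligible genes, at 0.996 and 0.992 against 0.967 to 0.970. These values are over genes within 4 arrays that share their probes, and genes are not independent replicates.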

How the data were processed

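Total RNA of 4 cultures (100 ng each, integrity number above 7.5 per the labels' protocols) was labelled with Cy3 and hybridised to rat arrays. Spot intensity and software flags were deposited as scanner output; the submitters' processing notes name Feature Extraction 11.0.1.1. The processed intensity had its background subtracted and spatial trend removed, per the file headers, with no normalization between arrays, and the design names build rn4. Control spots and outlier spots (623 to 1016 per array) were left out, and repeated spots of 1 probe were combined as their log2 mean. Of 45598 probes, 34.2% were detected on all arrays, under 50%, so each array's 75th percentile over those probes was subtracted. A probe printed several times was detected where more than 50% of its spots were.

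Probe accessions, without version, were looked up in RefSeq's gene table (GRCr8): 21109 probes had 1 symbol, 0 had several and 24489 had none. A gene took its brightest probe's level. Promoters came from the RefSeq table of the same build, which gives 250 bases before and 50 from the start; array coordinates were not used, since builds differ.

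With 1 group, no test between groups was run, and the 4 arrays limit the precision. Members, lists and named genes were chosen with earlier results of these data known. The text names 32 listed members; the 6 with the largest and the 6 with the smallest SD; members not detected on all arrays; the 6 whose probes disagree most; paralogues; the gene with the largest SD of each pathway list; and, beyond that rule, members chosen after their values were seen (Rps7, Rps16, Rps18, Rps24, Rps29, Rpl10a, Rpl15, Rpl31, Rpl35a and Rpl36, and outside the family Rps6kb2, Nop58, Gnl3 and Mdm2). A few genes of the pathway and marker lists are not reported here. The code was tested on simulated data. Alternatives covered scaling, background correction (normexp, limma 3.58.1 in R 4.3.3, offset 50, on the median signal), probe choice, outlier spots, detection, the member rule and each replicate. Python 3.11.15, numpy 2.4.6, pandas 2.3.3 and matplotlib 3.10.9 were used.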

Additional observations from a re-analysis of the deposited data

Results flagged for a closer look

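Of 68 values examined for an array standing apart (58 named genes and 10 summaries over the members), 1 was flagged, and chance flags about 1 in 20. In Rpl23a, replicate 1 (4.25) lay below the other replicates (4.39 to 4.42), a gap of 0.864 of the whole range, above the 95% critical value of Dixon's test for 4 samples. In the scaling used here the whole range of Rpl23a was 1.12-fold, and its SD was among the 6 smallest of the members detected on all arrays. With the percentile over all probes its SD was 0.267. That percentile shifts replicates 1 to 4 by -0.170, 0.189, -0.199 and 0.180. Replicate 3 then lies nearer to replicate 1 than to replicates 2 and 4, so the gap belongs to the scaling used here. The Rpl23a values above come from a probe printed 1 time. The other Rpl23a probes, each printed 10 times, were also lowest on replicate 1. The brightest of them read 3.91, 4.05, 4.09 and 4.09. Replicate 1 was less set apart in the next, at 3.13, 3.31, 3.22 and 3.47, and in the dimmest, at 2.65, 2.77, 2.78 and 2.87.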

How the results depend on the processing

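The spread and direction of the family depended on the scaling. Relative to the main scaling, the 75th percentile over all probes shifted the arrays by up to 0.199 and the median of the detected probes by up to 0.111 (log2, around their mean), raising replicates 2 and 4. With all probes, the median level was 8.73, the median SD 0.299, the mean deviations -0.271, 0.279, -0.213 and 0.205 on replicates 1 to 4, and 44 members had a range over 1.5-fold; 71 members were higher on replicates 2 and 4 and 5 on replicates 1 and 3. With the median of the detected probes, these were 7.29, deviations of -0.211, 0.201, -0.114 and 0.124, 33 members, and 12 members higher on replicates 1 and 3. Under quantile normalization the mean deviations were 0.055 and -0.062 on replicates 1 and 2, with 27 members higher on replicates 2 and 4 and 42 on replicates 1 and 3. Over the eligible genes, the mean deviations with all probes were -0.147, 0.159, -0.174 and 0.162. There, 69.9% were higher on replicates 2 and 4 and 19.0% on replicates 1 and 3. Under quantile normalization they were -0.040 and 0.048 on replicates 1 and 2, with shares of 57.4% and 27.7%. The mean over a gene's probes gave a median level of 4.58. The tract share was 56.7% with the shifted start and 22.4% with the longer run. Leaving out each replicate gave median levels of 5.36 to 5.46, median SDs of 0.171 to 0.199, 6 to 10 members over 1.5-fold (6 without replicate 1), and mean deviations of -0.105 to -0.0710, 0.0564 to 0.109, -0.0472 to 0.0160 and -0.00928 to 0.0550 for replicates 1 to 4; 82 members were detected each time. A range over fewer arrays tends to be narrower, and with a replicate left out 31.2% to 33.6% of the eligible genes exceeded 1.5-fold. Beyond the construction of all these settings, the cause was not tested.

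The median SD of the members was below that of the eligible genes in each of these settings (0.138 and 0.250 under quantile normalization). The members detected on all arrays numbered 82 to 84 under the other detection rules (with 84, positive and significant spots, 21 had a range over 1.5-fold and 2 over 2-fold, and the pair shares were 64.3% and 17.9%), 85 with symbols of 2 letters taken in and 75 without paralogues. The SDs of single named genes depended on the scaling: of 58, 51 moved by over 1.5-fold with the percentile over all probes, 30 with the median of the detected probes and 38 under quantile normalization, against 0 to 6 in the other settings. With outlier spots kept, that of Rpl7 was 1.31. The 2 pair counts and the bright subset were alternatives chosen after seeing the data. Values near background are bounds. No paired analysis was possible because there is 1 group.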

Other observations

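Some ribosomal protein relatives lie outside the symbol rule. Rpl27al1 (2.66, 2.98, 2.89 and 2.95 on replicates 1 to 4), Rpl36al1, Rpl37al3 and Rplp1l1 were detected on all 4 arrays, with ranges of 1.11-fold to 1.25-fold. Rps7-ps20 and Rps4x-ps1, which are pseudogenes, were detected on 0 arrays. Among the kinases of Rps6, Rps6ka3 read -3.28, -4.84, -3.37 and -4.89, a range of 3.06-fold with the higher pair on replicates 1 and 3, as for Rps6kb1. Rps6ka1 read 1.92, 2.42, 1.88 and 2.31, with the higher pair on replicates 2 and 4. These genes were chosen after their values were seen, and no cause is assigned to the orders.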
